A study of Mus musculus with 4 samples.

Results

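The levels of 10 genes of the tumor necrosis factor (TNF) superfamily were followed in T cells from 2 brain-associated tissues, meninges and choroid plexus, of mice at 2 ages. The genes were 6 ligands, Tnf, Tnfsf8, Tnfsf11, Tnfsf14, Fasl and Cd40lg, and 4 receptors, Tnfrsf4, Tnfrsf8, Tnfrsf9 and Tnfrsf18, chosen by name among the 31053 genes of the count matrices. CD4 and CD8 T cells had been sorted by flow cytometry and profiled by droplet single-cell RNA-seq of the 5′ ends of transcripts, 1 library for each tissue at each age. The mice were female C57BL/6, 10 weeks old (young) or 18 months old (aged), and per the study the data were pooled from 5 mice per group. Whether the same mice gave both tissues is not stated in the sources used here. Where 4 values are listed, the young meninges come first, then the young choroid plexus, the aged meninges and lastly the aged choroid plexus. With 1 library per age and tissue, aged and young levels are compared without a test. Only the interaction of T-cell class and age is tested, with the tissues as replicates. All intervals given below are 95% intervals that cover counting error only.

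TNF superfamily ligands are mostly trimeric membrane proteins that T cells put on their surface or shed after activation, and they act on receptors of neighbouring cells. The receptors on T cells include costimulatory receptors, which recruit TRAF adaptors, activate NF-κB and prolong survival and cytokine production after antigen contact. CD40L (Cd40lg) marks helper function, Fas ligand (Fasl) kills Fas-bearing cells, and OX40 (Tnfrsf4), 4-1BB (Tnfrsf9) and GITR (Tnfrsf18) are found on recently activated T cells and on regulatory T cells.

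The 4 libraries held 718 to 1695 cell barcodes with 2295950 to 4262917 unique molecular identifiers (UMIs). After limits on genes and mitochondrial UMIs and removal of doublets, 1007, 605, 1408 and 1094 T cells with a UMI of Cd3d, Cd3e or Cd3g remained. T cells in which Cd4 but no Cd8 gene was seen were called CD4 (160 to 362 per library), those in which Cd8a or Cd8b1 but not Cd4 was seen were called CD8 (160 to 473), and those in which none of the 3 was seen were called neither (269 to 735), which gave 12 profiles with a median of 2079 to 3645 UMIs per cell. Neither cells made up 32.7 to 52.2% of the T cells of a library. Since CD4 and CD8 T cells had been sorted, a neither cell can be one of them whose Cd4 or Cd8 transcripts were missed. The part of such cells was not tested, and neither cells are not read as a separate cell type. Only 8 barcodes were found in more than 1 library. The neutrophil markers S100a8, S100a9 and Retnlg were at 0 in all 12 profiles, macrophage marker UMIs were seen in 0.356 to 3.31% of cells, and red blood cell markers reached 23.5% of cells in aged meningeal CD8 T cells against 5.51% in the young ones. Markers of the B-cell list were seen in 14.6 to 51.2% of cells, with Cd79a, Ms4a1 or both at 0 in 8 of the profiles. The share of cells with a Ccr7 UMI, a mark of naïve and central memory T cells, was 47.5 to 64.6% in the 6 young profiles and 8.90 to 11.3% in the 6 aged ones. That share moved with age in every class, and age ratios below are therefore also given for cells without a Ccr7 UMI where this changes a call.

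Tnfsf8, Tnfrsf8, Tnfrsf9, Tnfrsf4 and Tnfrsf18 lie on 1 chromosome, chromosome 4 of the GRCm38 build. Tnfrsf4 (chr4:156013843-156016612, plus strand) and Tnfrsf18 (chr4:156026164-156028895, plus strand) are separated by 9551 bases in GENCODE vM21, and Sdf4 ends 232 bases before Tnfrsf4. Tnf and Tnfsf14 are on chromosome 17, Tnfsf11 on chromosome 14, Fasl on chromosome 1 and Cd40lg on chromosome X.

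The 250 bases before the transcription start are shown for Tnf, Tnfsf14, Fasl and the first of 2 starts of Tnfrsf9, the 4 genes with the largest difference between Ccr7-negative and Ccr7-positive T cells (below). They are RefSeq sequences of GRCm38.p6, from a table that held 9 of the 10 genes (all but Cd40lg), each 5′ to 3′ on the strand of the gene, with capitals at matches to GGAAAA (the core letters of NFAT sites) or TGANTCA (AP-1) on either strand.
Tnf, chr17:35202008-35202257, minus strand: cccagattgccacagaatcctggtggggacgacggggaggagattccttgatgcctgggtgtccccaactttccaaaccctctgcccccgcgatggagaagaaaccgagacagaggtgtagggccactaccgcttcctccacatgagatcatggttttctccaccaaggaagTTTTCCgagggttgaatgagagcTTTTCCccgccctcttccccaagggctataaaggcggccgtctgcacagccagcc
Tnfsf14, chr17:57194182-57194431, minus strand: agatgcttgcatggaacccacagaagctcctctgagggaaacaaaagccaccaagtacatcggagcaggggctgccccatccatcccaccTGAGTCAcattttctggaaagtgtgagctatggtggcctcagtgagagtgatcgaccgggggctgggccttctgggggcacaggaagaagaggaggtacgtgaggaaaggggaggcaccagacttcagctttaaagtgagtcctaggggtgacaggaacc
Fasl, chr1:161788496-161788745, minus strand: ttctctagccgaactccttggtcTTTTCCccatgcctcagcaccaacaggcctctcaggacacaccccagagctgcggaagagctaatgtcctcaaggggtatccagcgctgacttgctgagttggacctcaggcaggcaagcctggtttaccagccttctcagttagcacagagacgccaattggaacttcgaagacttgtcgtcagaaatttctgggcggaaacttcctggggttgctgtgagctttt
Tnfrsf9, chr4:150919905-150920154, plus strand: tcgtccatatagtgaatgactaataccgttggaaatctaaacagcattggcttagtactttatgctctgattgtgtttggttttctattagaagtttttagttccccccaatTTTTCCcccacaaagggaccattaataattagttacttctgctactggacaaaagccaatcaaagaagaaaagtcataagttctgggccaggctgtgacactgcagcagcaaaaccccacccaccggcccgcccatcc
GGAAAA or its complement was found 2 times before Tnf, 1 time each before Fasl and Tnfrsf9, and TGANTCA 1 time before Tnfsf14. Of 32851 promoter windows of this length, 20.4% held GGAAAA, 6.75% held TGANTCA and 3.90% held the kappaB consensus. The window of the second start of Tnfrsf9 held 2 overlapping kappaB matches in the run GGGGATTTCCC, which begins 43 bases before that start, and 1 TGANTCA match 15 bases before it. That of Tnfrsf8 held 1 kappaB match 168 bases and 1 TGANTCA match 132 bases before the start. Before Tnfrsf18 there was 1 GGAAAA match, at 196 bases. The windows of Tnfsf8, Tnfsf11 and Tnfrsf4 held none of the 3 motifs. Such matches describe letters and not binding.

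**Figure D1:**
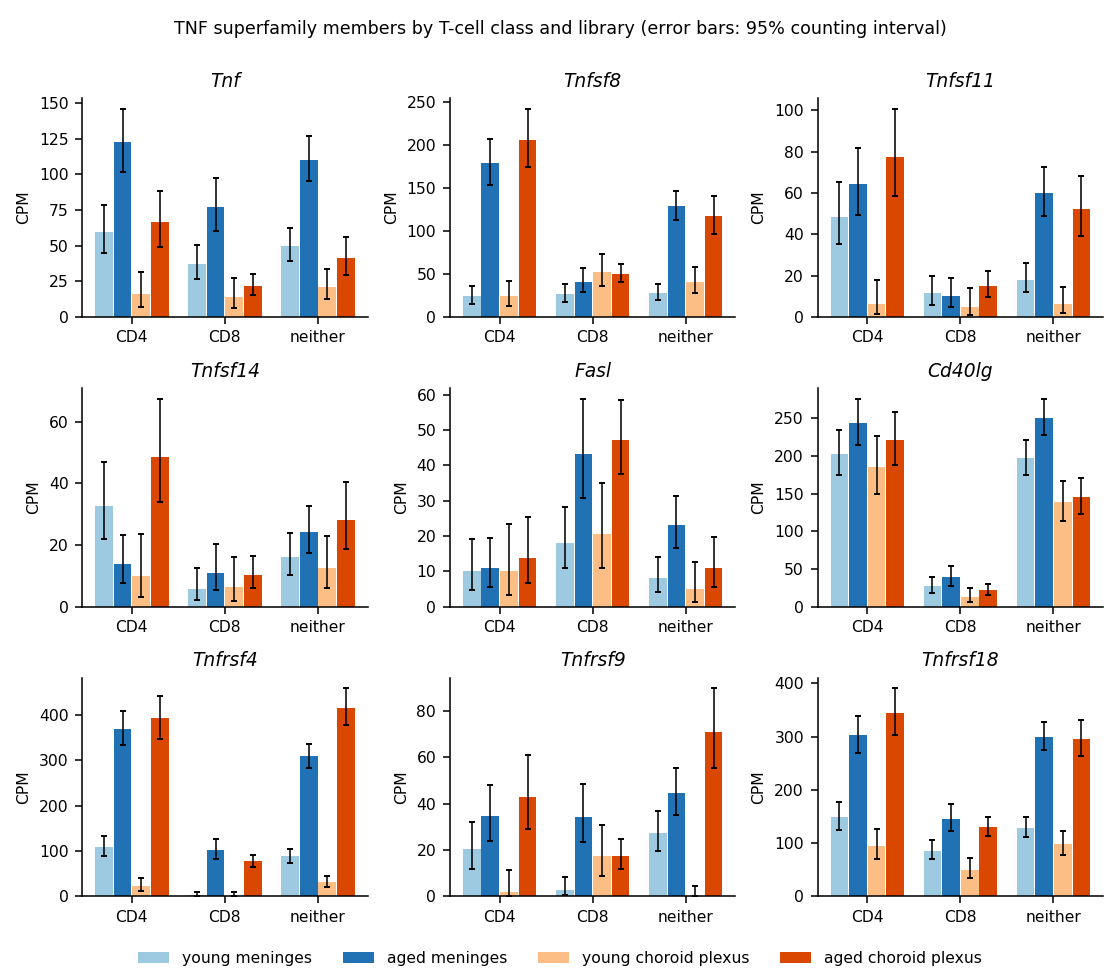
Level of 9 genes in CD4, CD8 and neither T cells of the 4 libraries, in CPM (linear axis from 0), with bars for libraries and error bars for the 95% counting interval of the summed UMIs. Cd40lg is at most 38.7 CPM in the CD8 bars and at least 139 CPM in the others, and Tnfrsf4 is higher in the aged bar than in the young bar of the same tissue in every class. Tnfrsf8, with 8 UMIs in all, is not drawn.

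Levels are given as CPM, the UMIs of a gene per 1000000 UMIs summed over the cells of a profile. In such sums fewer expressing cells and less RNA per cell cannot be told apart, so shares of cells with a UMI are given beside them. CD4 and CD8 T cells of the same library differed in 7 of the 8 genes with enough counts to be tested. Fasl was higher in CD8 T cells, and Tnf, Tnfsf8, Tnfsf11, Cd40lg, Tnfrsf4 and Tnfrsf18 were higher in CD4 T cells. The test was edgeR's quasi-likelihood test on UMIs summed per class and library, with the library as a block and Benjamini-Hochberg adjustment over 7067 genes. At an adjusted p of 0.05 it called 4.19% of all genes higher and 3.99% lower in CD8 T cells. Tnfsf14 and Tnfrsf8 did not pass the filter on low counts. The p-values rest on 4 pairs of summed profiles and measure only the spread between these libraries.

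Cd40lg, the ligand by which helper T cells license B cells and dendritic cells, had the largest of these differences. It stood at 203, 185, 244 and 222 CPM in CD4 T cells, and at 27.4, 12.6, 38.7 and 21.9 CPM in CD8 T cells. The 2 classes did not overlap in any library. The log2 difference, CD8 minus CD4, was -2.95 ± 0.15 (SE, edgeR adjusted p = 1.9e-09). Neither T cells held 139 to 251 CPM of Cd40lg, above all CD8 values. A UMI of Cd40lg was seen in 38.7 to 41.7% of CD4 T cells and in 4.38 to 7.47% of CD8 T cells.

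Fasl, the death-inducing ligand of cytotoxic cells, ran the other way. Its level was 17.98, 20.5, 43.1 and 47.2 CPM in CD8 T cells of the 4 libraries, against 10.2, 10.1, 10.9 and 13.9 CPM in CD4 T cells. The CD8 value was the higher in each library, and the counting intervals were apart in both aged libraries and overlapped in both young ones. The log2 difference was 1.66 ± 0.26 (edgeR adjusted p = 0.00046). The share of CD8 T cells with a Fasl UMI was 6.69 and 6.25% in the young libraries and 12.1 and 15.01% in the aged ones.

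Tnfsf11 (RANKL), known for driving osteoclasts and lymphoid tissue development, was lower in CD8 T cells by a log2 difference of -2.15 ± 0.23 (edgeR adjusted p = 1.27e-05). CD4 T cells had 48.5, 6.04, 64.2 and 77.6 CPM and CD8 T cells 11.4, 4.73, 9.94 and 14.98 CPM. The young choroid plexus was the exception, since its values rested on 3 UMIs in each class and their intervals overlapped. Tnf, the founding inflammatory cytokine of the family, had 59.8, 16.1, 122 and 66.5 CPM in CD4 T cells and 36.9, 14.2, 77.3 and 21.9 CPM in CD8 T cells. Its log2 difference of -0.75 ± 0.19 passed the test (edgeR adjusted p = 0.0183), but without the aged choroid plexus it was -0.49 (edgeR adjusted p = 0.143), without the aged meninges -0.90 (edgeR adjusted p = 0.052), and DESeq2 did not call it (adjusted p = 0.396).

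Among receptors, Tnfrsf4 (OX40) was lower in CD8 than in CD4 T cells by a log2 difference of -2.24 ± 0.21 (edgeR adjusted p = 2.8e-06), and Tnfrsf18 (GITR) by -0.97 ± 0.12 (edgeR adjusted p = 4.29e-05). Tnfrsf4 stood at 109, 22.1, 369 and 392 CPM in CD4 T cells and at 3.78, 1.58, 103 and 77.2 CPM in CD8 T cells, with no overlap within a library. Tnfrsf18 stood at 149, 94.6, 303 and 345 CPM in CD4 and at 86.1, 50.4, 146 and 130 CPM in CD8 T cells, so that the aged CD8 values lay within the range of the young CD4 values. Tnfrsf9 (4-1BB) showed no called difference between the classes (log2 difference -0.53 ± 0.38, edgeR adjusted p = 0.528). Its 4 young values rested on few UMIs or cells. A single cell held 72.2% of the 18 UMIs in young meningeal CD4 T cells and 81.8% of the 11 UMIs in young choroid plexus CD8 T cells, and the young meningeal CD8 and choroid plexus CD4 values rested on 3 and 1 UMIs.

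**Figure D2:**
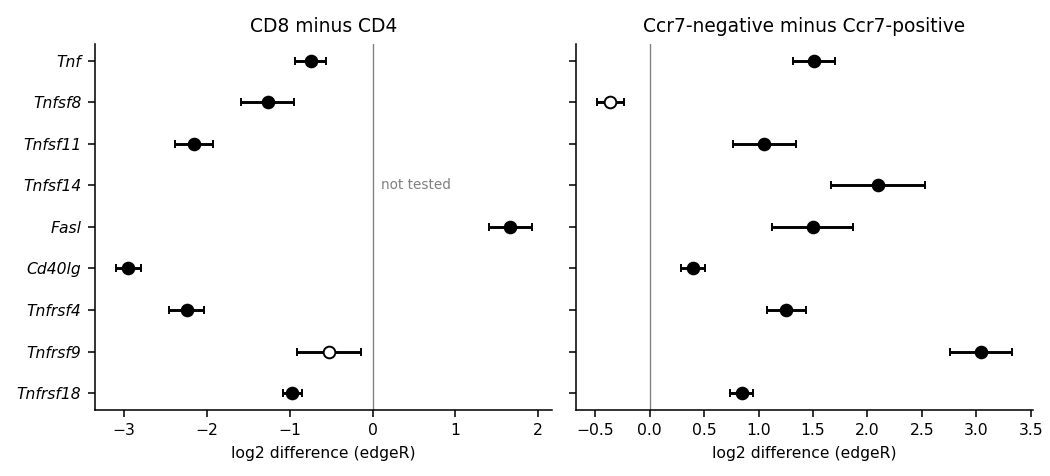
Log2 differences of 9 genes between CD8 and CD4 T cells (left) and between Ccr7-negative and Ccr7-positive T cells (right), fitted by edgeR over 4 libraries, with bars for 1 standard error. Filled circles passed an adjusted p of 0.05 over all genes. On the left Fasl is the only filled circle above 0, and on the right all filled circles are above 0.

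Tnfsf8 encodes CD153 (CD30 ligand), and its difference between the classes was itself different in young and aged libraries. CD4 T cells had 23.7 and 24.2 CPM in the young meninges and choroid plexus and 179 and 206 CPM in the aged ones. CD8 T cells had 26.5 and 52.0 CPM in the young and 40.9 and 50.1 CPM in the aged libraries. The aged CD4 intervals (154 to 207 and 175 to 242 CPM) lay above those of all 6 young profiles and of both aged CD8 profiles, whereas the young CD4 intervals (14.7 to 36.2 and 12.5 to 42.2 CPM) overlapped the young CD8 intervals of the same tissue.

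The interaction of class and age was tested with the tissues as replicates, 2 libraries per age. Its p-values do not measure the spread between mice. For Tnfsf8 the log2 difference, CD8 minus CD4, was lower in aged than in young libraries by -2.68 ± 0.33 (edgeR adjusted p = 0.0126), and 0.127% of 7067 genes were called. Across libraries of both ages together the CD8 minus CD4 difference was -1.26 ± 0.32 (edgeR adjusted p = 0.0187). It was not called without the aged meninges (-0.90, edgeR adjusted p = 0.228), without the aged choroid plexus (-0.77, edgeR adjusted p = 0.239) or by DESeq2 (-0.66, adjusted p = 0.999). The interaction kept its sign in every alternative run, between -2.26 and -3.16, but was not called without the young meninges (edgeR adjusted p = 0.0983), without the young choroid plexus (0.128), without the library block (0.113) or by DESeq2 (0.10).

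Tnfrsf4 had an interaction of the opposite sign. Its log2 difference, CD8 minus CD4, was higher in aged than in young libraries by 2.49 ± 0.51, which did not pass the adjusted test (edgeR adjusted p = 0.174), and the young CD8 levels rested on 4 and 1 UMIs. In edgeR fits of Tnfrsf4 it passed without the aged meninges (adjusted p = 0.0402), without the aged choroid plexus (0.000198), without the filter on low counts (0.000886) and where 2 UMIs were needed to call a class (0.00200). The other 6 genes tested had edgeR adjusted p-values for the interaction of 0.830 to 1.

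**Figure D3:**
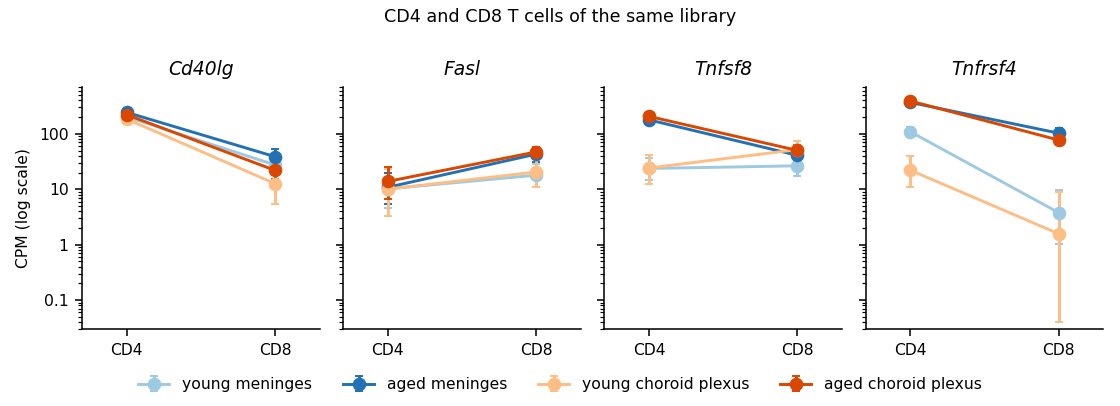
Level in CD4 and CD8 T cells of the same library for Cd40lg, Fasl, Tnfsf8 and Tnfrsf4, in CPM on a logarithmic axis, with a line per library and error bars for the 95% counting interval. The Tnfsf8 lines run down from CD4 to CD8 in the aged libraries (179 to 40.9 and 206 to 50.1 CPM) and not in the young ones (23.7 to 26.5 and 24.2 to 52.0 CPM).

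For age, a gene was taken as different where the library with the higher level held at least 20 UMIs and the log2 ratio of CPM plus 10 was at least 1 in size. By this rule of size Tnfrsf4 was higher in aged T cells in 6 of 6 comparisons, Tnfsf8 and Tnfrsf18 in 4, Tnfsf11 and Tnfrsf9 in 3, Tnf in 2 and Tnfsf14 in 1. Fasl, Cd40lg and Tnfrsf8 passed it in none. Tnfrsf8, with 8 UMIs in all, could not pass. Fasl could not pass in CD4 T cells of either tissue or in choroid plexus neither cells, where it held under 20 UMIs. Of the 10 genes, 7 to 9 held enough UMIs in each comparison. None of the 10 was lower in aged T cells by the rule over all cells of a class, but Tnfsf14 was lower in meningeal CD4 T cells in several subsets and settings given below.

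In meningeal CD4 T cells 2 genes passed, Tnfsf8 and Tnfrsf4, where 4.25% of all 5879 genes with enough UMIs were higher and 1.87% lower. In meningeal CD8 T cells 2 passed, Tnfrsf4 and Tnfrsf9, against 3.22% of genes higher and 1.84% lower. In meningeal neither cells 5 passed, Tnf, Tnfsf8, Tnfsf11, Tnfrsf4 and Tnfrsf18, against 3.45% higher and 1.42% lower. Choroid plexus CD4 T cells had the longest list, with 7 genes (all but Fasl, Cd40lg and Tnfrsf8), and there 7.53% of all genes were higher and 1.99% lower. In choroid plexus CD8 T cells 2 passed, Tnfrsf4 and Tnfrsf18, against 2.84% higher and 1.01% lower, and in neither cells 5 passed, Tnfsf8, Tnfsf11, Tnfrsf4, Tnfrsf9 and Tnfrsf18, against 4.67% higher and 1.84% lower. Macrophage markers moved with age in choroid plexus CD4 T cells, from 24.2 to 277 CPM in 1.88 and 0.870% of cells. Without cells holding a UMI of a B, plasma, macrophage, neutrophil or mast cell marker (a non-T marker) 6 genes passed there. The gene lost was Tnfrsf9, with 1 young and 31 aged UMIs in all CD4 T cells of the choroid plexus and 0 and 5 UMIs without those cells. This filter left only 91 of 160 young and 145 of 230 aged CD4 T cells of the choroid plexus. A marker of the B-cell list was seen in 84 of the 230 aged cells and a macrophage marker in 2. In choroid plexus CD8 T cells summed epithelial markers went from 175 to 9.80 CPM and natural killer cell markers from 161 to 23.6 CPM from young to aged, and the part of these cells in the results was not tested.

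Tnfsf8 had log2 ratios, aged over young, of 2.49 and 2.66 in CD4 T cells and 1.87 and 1.32 in neither cells of meninges and choroid plexus, and of 0.48 and -0.04 in CD8 T cells. Its 4 highest profiles were the aged CD4 and neither cells, and the step from the lowest of these, 117 CPM (97.0 to 141), to the next, 52.0 CPM in young choroid plexus CD8 T cells, was larger than the counting error. The ratios in CD4 T cells without a Ccr7 UMI were 2.63 and 2.56. The share of cells with a Tnfsf8 UMI was 7.09 and 7.5% in young and 26.8 and 27.4% in aged CD4 T cells. After drawing 1000 UMIs per cell it was 2.77 and 4.40% against 12.9 and 15.3%.

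Tnfrsf4 had log2 ratios of 1.67, 3.03 and 1.69 in CD4, CD8 and neither cells of the meninges and 3.64, 2.91 and 3.38 in those of the choroid plexus. Its level in neither cells was 88.3 and 31.0 CPM in the young and 308 and 416 CPM in the aged meninges and choroid plexus. In choroid plexus CD8 T cells it rested on 1 UMI in the young against 134 in the aged library, a ratio of 49.0 with a counting interval of 8.64 to 1949. The smallest of the 6 was that of meningeal CD4 T cells, where 1 young cell held 32.0% of the 97 UMIs. The meningeal CD4 ratio of Tnfrsf4 did not pass the rule without cells holding a non-T marker (0.92, with intervals apart) or where 2 UMIs were needed to call a class (0.30). The filter on non-T markers left 137 of 254 young and 243 of 362 aged meningeal CD4 T cells. The share of CD4 T cells with a Tnfrsf4 UMI was 10.2 and 5.62% in young and 35.9 and 43.5% in aged libraries. In CD8 T cells it was 1.18 and 0.625% in young and 7.12 and 9.51% in aged libraries. Of the aged CD8 UMIs 1 cell held 24.7% in the meninges and 1 cell 17.2% in the choroid plexus. After thinning to 1000 UMIs per cell Tnfrsf4 did not pass the rule in meningeal CD8 T cells, where 0 genes passed.

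Tnfrsf18 had log2 ratios of 0.98, 0.70 and 1.16 in meningeal CD4, CD8 and neither cells and 1.76, 1.21 and 1.49 in those of the choroid plexus, with counting intervals apart in all 6. In cells without a Ccr7 UMI the meningeal ratios were 0.41, 0.52 and 0.59 and those of the choroid plexus 1.25, 1.08 and 1.15. Tnfrsf9 had 2.84 CPM in young and 34.2 CPM in aged meningeal CD8 T cells (3 and 31 UMIs, ratio 12.1, 3.76 to 61.7). In choroid plexus neither cells it was at 0 in the young library and at 71.2 CPM in the aged one, at least 19.1-fold higher when the young library was set at the floor of 3 UMIs. Its meningeal ratios in CD4 and neither cells were 0.56 and 0.55, and -0.23 and -0.18 in cells without a Ccr7 UMI.

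Among the remaining ligands, Tnf had ratios of 0.92, 0.90 and 1.01 in CD4, CD8 and neither cells of the meninges. Those of the choroid plexus were 1.55, 0.40 and 0.72. Without Ccr7-positive cells the Tnf ratios were 0.16, 0.22 and 0.38 in the meninges, so that the neither cells no longer passed, and 1.16, 0.28 and 0.27 in the choroid plexus. In aged choroid plexus CD4 T cells 1 cell held 39.6% of the 48 Tnf UMIs. Tnfsf11 had meningeal ratios of 0.34, -0.10 and 1.33 and choroid plexus ratios of 2.45, 0.76 and 1.94, and the CD4 value of the choroid plexus compares 3 with 56 UMIs (ratio 12.8, 4.18 to 64.2). In cells without a Ccr7 UMI the Tnfsf11 ratios were -0.14, -0.69 and 0.66 in the meninges, where none passed, and 2.06, 0.35 and 1.53 in the choroid plexus. Tnfsf14 (LIGHT), which signals through the herpesvirus entry mediator and the lymphotoxin beta receptor, went from 32.7 to 13.8 CPM in meningeal CD4 T cells with overlapping intervals and from 10.1 to 48.5 CPM in those of the choroid plexus. Without Ccr7-positive cells the meningeal values of Tnfsf14 were 67.6 CPM (44.2 to 99.1) in the young and 14.3 CPM (7.61 to 24.4) in the aged library, a log2 ratio of -1.68 that passed the rule as lower, and the choroid plexus ratio of 1.54 became 0.99 with overlapping intervals and did not pass. Without cells holding a non-T marker the meningeal ratio was -1.45, also past the rule with intervals apart. Of the 29 Tnfsf14 UMIs in CD4 T cells of the young meninges 1 cell held 48.3%.

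Cd40lg and Fasl passed the rule in no comparison over all cells of a class. The 6 log2 ratios of Cd40lg lay between 0.06 and 0.50, and in neither cells of the meninges, where the most UMIs were counted (297 and 435), the level was 197 CPM (175 to 221) in the young and 251 CPM (228 to 276) in the aged library. Fasl ratios in CD8 T cells were 0.92 and 0.91, just under the rule, with intervals apart in both tissues, and in meningeal neither cells the ratio was 0.88 (7.97 to 23.1 CPM), also with intervals apart. The CD8 ratios were 0.15 and 0.66 in cells without a Ccr7 UMI. Tnfrsf8 (CD30), the receptor of CD153, was at 0 in all 6 young profiles and had 0 to 3 UMIs in the aged ones, 8 UMIs in all. In aged meningeal CD4 T cells 0 of 362 cells had a UMI of Tnfrsf8, and the level there was under 3.64 CPM by the upper counting bound.

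**Figure D4:**
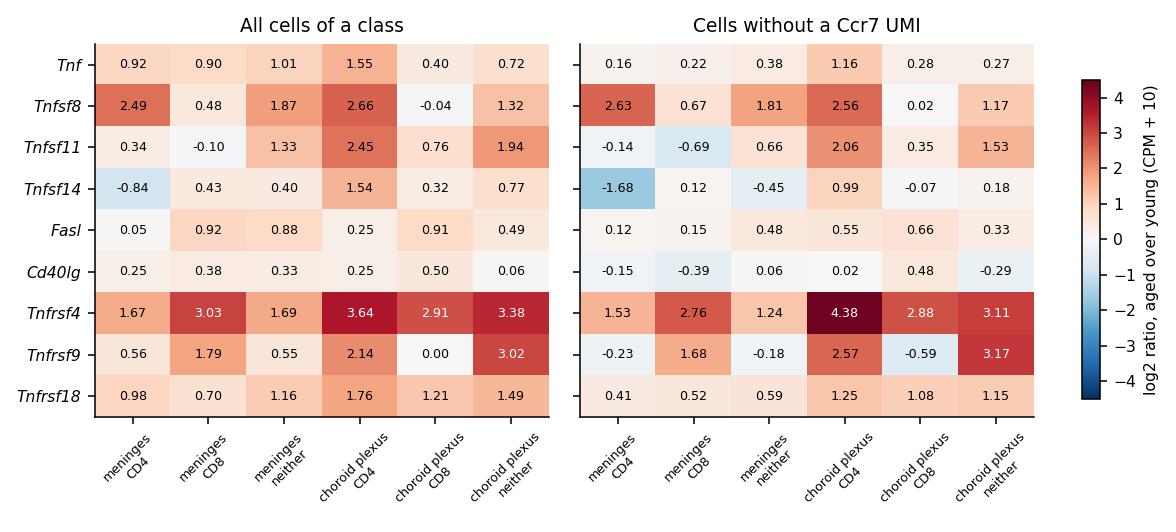
Log2 ratio of aged over young libraries (CPM plus 10) for 9 genes in 3 T-cell classes of 2 tissues, in all cells of a class (left) and in cells without a Ccr7 UMI (right), with red for higher in aged. Tnfrsf4 lies between 1.67 and 3.64 on the left and between 1.24 and 4.38 on the right, and Tnfsf8 is at least 2.49 in CD4 T cells on both sides. The meningeal Tnf values of 0.92, 0.90 and 1.01 become 0.16, 0.22 and 0.38.

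The shares of cells with a UMI were set against a reference, 276 CD8 T cells with a Ccr7 UMI and none of Cd44 over the 4 libraries, with a median of 3820 UMIs per cell. These cells are part of the CD8 profiles, so the CD8 shares are not independent of the reference. They held a UMI of Tnfrsf9 or Tnfsf14 in 0.725% each, of Tnfsf11 in 1.09%, of Tnfrsf4 in 1.45%, of Fasl in 1.81%, of Tnf in 4.35% and of Cd40lg in 5.07%. Tnfsf8 was seen in 17.0% and Tnfrsf18 in 24.6% of them. Shares of Tnfsf8 above that value were found in aged CD4 T cells and aged choroid plexus neither cells (20.9%), while the 9.06 to 16.9% of CD8 T cells, all young values and aged meningeal neither cells (17.0%) lay at or below it. The counting interval of that reference share was 12.8 to 22.0%, which includes the 20.9%. Depth was not equal in this comparison, since aged meningeal neither cells had a median of 2079 UMIs. The shares therefore do not show that Tnfsf8 in those cells was at the reference level. After thinning to equal depth, 10% of aged meningeal neither cells and 2.36 to 4.46% of CD8 T cells per library held Tnfsf8. The reference cells were not thinned. For Tnfrsf18 the young values of 18.1 to 30.3% lay around the reference share and the aged values of 30.9 to 55.2% above it. For Cd40lg the CD8 shares of 4.38 to 7.47% were at the reference share or close to it, in the class that holds the reference cells.

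Ccr7-negative and Ccr7-positive T cells of the same library were compared next, over all T cells, 274 to 1274 and 108 to 601 cells per library. Of 9 genes tested 8 were higher in Ccr7-negative cells and none lower, where 4.84% of 7954 genes were called higher and 5.18% lower (edgeR adjusted p under 0.05). Median UMIs per cell were lower in Ccr7-negative cells in each library, 2243 against 3020 in the aged meninges and 2752 against 3754 in the aged choroid plexus.

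Tnfrsf9 had the largest difference, with 39.5, 12.3, 42.8 and 43.6 CPM in Ccr7-negative and 3.29, 1.76, 6.58 and 4.33 CPM in Ccr7-positive cells (log2 difference 3.05 ± 0.29, edgeR adjusted p = 7.2e-06). Its Ccr7-positive values rested on 7, 2, 3 and 2 UMIs, and the young choroid plexus Ccr7-negative value on 11 UMIs in 3 cells. Tnfrsf9 was followed in the edgeR fit by Tnfsf14 (2.10 ± 0.43, adjusted p = 0.00398), Tnf (1.51 ± 0.19, adjusted p = 9.04e-05) and Fasl (1.497 ± 0.37, adjusted p = 0.0153). Tnf stood at 89.8, 26.8, 111 and 40.4 CPM in Ccr7-negative and at 20.7, 9.68, 50.5 and 10.8 CPM in Ccr7-positive cells. Tnfrsf4 (1.25), Tnfsf11 (1.05), Tnfrsf18 (0.85) and Cd40lg (0.40) had smaller differences that also passed. Without the young meninges 4 genes were called, and Tnfsf11, Tnfsf14, Fasl and Cd40lg were not. In the edgeR fit without cells holding a non-T marker Tnfrsf4 (0.68, adjusted p = 0.0732), Tnfsf11 (0.54, adjusted p = 0.392) and Cd40lg (0.33, adjusted p = 0.140) were not called.

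Tnfsf8 was the only gene of the 9 whose fitted difference was below 0. Its values were 23.7, 40.2, 120 and 98.7 CPM in Ccr7-negative and 27.7, 39.6, 134 and 121 CPM in Ccr7-positive cells, and the log2 difference of -0.36 ± 0.12 did not pass the test (edgeR adjusted p = 0.0824). The 4 values of each state ordered the libraries by age, with both aged values above both young ones. After thinning to 1000 UMIs the difference was 0.02.

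T cells were also split by Foxp3, the transcription factor that marks regulatory T cells. A Foxp3 UMI was found in 4.35, 2.56, 11.5 and 8.16% of CD4 and neither T cells of the 4 libraries. Tnfrsf4 had 658, 166, 825 and 1108 CPM in Foxp3-positive and 65.7, 22.3, 246 and 317 CPM in Foxp3-negative cells. The intervals were apart in all 4 libraries, and Foxp3-positive cells held 36.7 and 30.7% of the Tnfrsf4 UMIs of these classes in the aged meninges and choroid plexus. The age difference of Tnfrsf4 was present in Foxp3-negative cells as well, with non-overlapping intervals in both tissues. Foxp3 was used as a split only, and a cell without a Foxp3 UMI can still be a regulatory T cell.

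Tnfrsf9 stood at 126 and 259 CPM in aged Foxp3-positive and at 26.1 and 34.1 CPM in aged Foxp3-negative cells of meninges and choroid plexus, and Tnfrsf18 at 642 and 538 against 243 and 288 CPM. The ligands Tnfsf8 and Cd40lg were the reverse in the aged libraries, but not every ligand was. Tnfsf11 had 114 CPM (71.4 to 172) in Foxp3-positive against 56.3 CPM (45.1 to 69.6) in Foxp3-negative cells of the aged choroid plexus. The former value rested on 22 UMIs in 7 of 48 cells. The shares of cells with a UMI, 14.6% (6.07 to 27.8) and 11.3% (8.75 to 14.3), overlapped. In the aged meninges Tnfsf11 had 49.5 against 63.6 CPM and Tnf 102 against 117 CPM, both with overlapping intervals. Tnfsf8 had 66.9 CPM (44.1 to 97.3) in Foxp3-positive against 161 CPM (145 to 178) in Foxp3-negative cells of the aged meninges, and 20.7 CPM (5.64 to 53.0) against 172 CPM (151 to 194) in the aged choroid plexus. Cd40lg had 144 against 267 CPM in the aged meninges and 77.6 against 190 CPM in the aged choroid plexus. In the young libraries Foxp3-positive cells numbered 32 and 11 and held 4 and 0 UMIs of Tnfsf8.

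**Figure D5:**
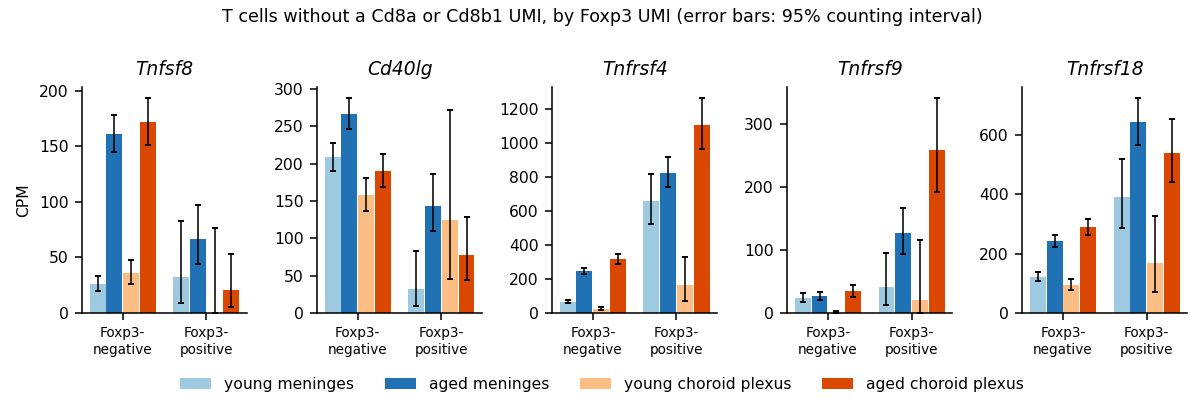
Level of 5 genes in T cells without a Cd8a or Cd8b1 UMI, split by a Foxp3 UMI, in CPM on linear axes from 0, with bars for libraries and error bars for the 95% counting interval. In the aged libraries Tnfsf8 is lower in Foxp3-positive cells (66.9 and 20.7 against 161 and 172 CPM) and Tnfrsf4 is higher (825 and 1108 against 246 and 317 CPM).

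Genes seen in the same cells were counted after drawing 1000 UMIs from each cell, so that depth was equal. All T cells of a library were counted together, so differences between classes enter these shares. Their part was not tested. Tnfrsf4 and Tnfrsf18 were the pair found together most often, in 189 cells over the 4 libraries. Of 261 aged meningeal T cells with Tnfrsf4, 42.9% (36.8 to 49.2) also held Tnfrsf18, against 16.9% (14.7 to 19.2) of those without, and in the aged choroid plexus it was 41.4% of 157 cells against 15.1%. The young meninges had 30.3% of 33 cells (15.6 to 48.7) against 9.42%.

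Tnfsf8-bearing T cells of the aged libraries held Tnfsf11 more often than other T cells, in 15.3% (9.58 to 22.6) against 4.92% (3.79 to 6.28) of meningeal cells and in 9.68% (4.52 to 17.6) against 2.86% (1.91 to 4.10) of choroid plexus cells. They also held Tnfrsf4 more often, 32.8 against 17.6% and 24.7 against 13.7%. None of the 131 meningeal and 93 choroid plexus T cells with Tnfsf8 held Tnfrsf9, which allows shares of up to 2.29 and 3.23%, against 4.12 and 1.63% of T cells without Tnfsf8. The choroid plexus limit lies above the share in the other cells, so a difference was not detectable there. Before thinning, cells with Tnfsf8 had median UMIs of 1956 against 2403 (meninges) and 2357 against 2895 (choroid plexus).

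The genes whose profile was most like each member were found by Pearson's r of log2(CPM + 10) over the 12 profiles among 5834 other genes with at least 200 UMIs. The profiles share libraries and classes, so r is a description. Tnfrsf4 was most like Itm2b, Pdia3 and Asb2 (r = 0.98 each), and Tnfrsf18 like Maf, Sdf4 and Tnfrsf4 (r = 0.97 each), of which Sdf4 is the gene next to Tnfrsf4 on chromosome 4. Tnfsf8 was most like Ptms (0.94), Prelid2 (0.92) and Gpm6b (0.92), Tnfsf11 like Ptpn7 (0.96), Ubl3 (0.95) and Podnl1 (0.95), and Tnf like Rgs1 (0.96), Nfkbid (0.96) and Gadd45b (0.96). Cd40lg was most like Cd247, Cd5 and Tmem64 (0.96 to 0.97), and Fasl like Ifitm10 (0.96), Nkg7 (0.94), a granule protein of cytotoxic cells, and Crim1 (0.94). Tnfsf14 was most like Impa1 (0.93) and Tnfrsf9 like Fam129a (0.91). Between members r was highest for Tnfrsf4 and Tnfrsf18 (0.97) and for Tnfsf11 and Tnfrsf18 (0.91), and lowest for Fasl and Cd40lg (-0.65).

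Of the other genes of the pathway, 11 ligands, 22 receptors and 30 signalling genes were listed. Lymphotoxin alpha (Lta), which lies beside Tnf in the genome, was lower in CD8 than in CD4 T cells by a log2 difference of -1.76 ± 0.22 (edgeR adjusted p = 5.8e-05), and Tnfrsf25 (DR3) by -1.52 ± 0.23 (edgeR adjusted p = 0.000355). These were 1 of 3 other ligands and 1 of 8 other receptors tested, and 4 of 30 signalling genes were also lower, Nfkbia (-0.83), Relb (-0.80), Cflar (-0.56) and Tnfaip3 (-0.46), with none higher. In Ccr7-negative against Ccr7-positive cells Lta (0.87) and Tnfsf10 (TRAIL, 1.16) were higher among 4 ligands, Tnfrsf1b (TNFR2, 1.31) and Tnfrsf1a (TNFR1, 0.63) were higher and Cd27 (-0.41) and Tnfrsf26 (-1.21) lower among 8 receptors, and Nfkb2 (1.06) was higher among 30 signalling genes (each at an edgeR adjusted p under 0.05).

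By the rule of size for age, 0 to 2 other ligands, 0 to 1 other receptors and 0 to 3 signalling genes were higher in aged T cells per comparison, and 1 gene, Map3k14 in meningeal CD8 T cells (20.8 to 4.42 CPM), was lower. The largest ratios were those of Lta in choroid plexus CD4 T cells (16.1 to 66.5 CPM, log2 ratio 1.55), Traf1 in choroid plexus neither and CD4 T cells (47.1 to 139 and 56.4 to 158 CPM, 1.39 and 1.34) and Tnfrsf1b in choroid plexus neither cells (11.2 to 44.1 CPM, 1.35). TRAF1 is an adaptor of several of the receptors named here. The median log2 ratio of all genes with enough UMIs was 0.04 to 0.18 in the 6 comparisons, and that of the 20 to 29 signalling genes with enough UMIs was -0.06 to 0.34.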

How the data were processed

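Single-cell libraries of sorted T cells were made with the 10x Genomics 5′ kit and deposited by the authors as filtered matrices of UMI counts per gene and cell, not normalized. The submitters' processing notes name Cell Ranger 5.1.0, STAR and mm10, whereas the file headers name Cell Ranger 3.1.0. The depth was 2295950 to 4262917 UMIs per library.

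Cells with 200 to 7000 genes and at most 5% mitochondrial UMIs were kept, as in the study's methods. The study removed doublets with DoubletFinder. Here Scrublet in scanpy 1.11.5 marked 16, 22, 0 and 5 cells, so doublets may remain, above all in the aged meninges. T cells with UMIs of both Cd4 and Cd8 (16 to 33 per library) and cells without a Cd3 UMI entered no class.

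UMIs were summed per class and library. CPM intervals are Poisson and share intervals Clopper-Pearson, at 95%, and cover counting error only. Age ratios are log2 ratios of CPM plus 10, without a test. Class, Ccr7 state and the interaction of class and age were fitted across all genes with edgeR 4.0.16 (quasi-likelihood test, TMM, library as a block, Benjamini-Hochberg adjustment) in R 4.3.3, with standard errors taken from the F statistic. DESeq2 1.42.0 was an alternative. The edgeR fits and the rule of size were also run on simulated data. For the rule of size these were Poisson sums, which lack the clumping of UMIs in single cells. No result above rests on these runs. Python 3.11.15, numpy 2.4.6, scipy 1.17.1 and pandas 2.3.3 were used, and figures were drawn with matplotlib 3.10.9.

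The genes of the report are the 10 superfamily members. From each of the 3 lists of other pathway genes, those past the rule of size or called by a test were named, up to the 6 with the largest log2 ratio, and for each member the 3 genes of most similar profile. Members, lists and tests were chosen with earlier results of these data known. Alternatives changed the pseudocount, the filters on cells and genes, the gates, the depth, the tool and the libraries.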

Additional observations from a re-analysis of the deposited data

Results flagged for a closer look

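The CD8 minus CD4 difference of Tnfsf8 was itself different between young and aged libraries, with an interaction of -2.68 ± 0.33 on the log2 scale (edgeR adjusted p = 0.0126). The tissues stood as replicates, so this p-value does not measure the spread between mice. The interaction was not called without the young meninges, without the young choroid plexus, without the library block or by DESeq2. CD8 and CD4 T cells had 26.5 and 23.7 CPM in the young meninges and 40.9 and 179 CPM in the aged meninges.

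T cells with UMIs of both Cd4 and Cd8, 16 to 33 per library, entered no comparison above. All 10 genes were compared in them in both tissues, and 5 values were higher in the aged library beyond the counting intervals. Only higher aged values were looked for, so a lower one could not be listed. The share of all genes that would pass was not counted. Tnfrsf18 stood at 273 CPM in the aged meninges, against an upper bound of 149 CPM in the young, and at 313 CPM in the aged choroid plexus, against 94.0 CPM. Tnfrsf4 stood at 175 CPM in the aged meninges, against an upper bound of 81.1 CPM in the young, and at 404 CPM in the aged choroid plexus, against 109.9 CPM. Tnfsf8 stood at 140 CPM in the aged meninges, against an upper bound of 81.1 CPM. Whether these barcodes hold 1 cell or several was not tested.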

How the results depend on the processing

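Among age ratios of single genes recomputed under alternatives, 666 stayed within a counting interval and 54 moved beyond it. None that passed the rule of size changed sign. That interval joined opposite counting bounds of the young and aged libraries, so it was wider than the level stated for the other intervals. A minimum of 10 UMIs cannot change a ratio, so its 60 ratios stayed by design. Tnfrsf8 had 0 UMIs at both ages in meningeal CD4 and CD8 T cells and could hardly move. The count of 666 therefore overstates how stable the ratios were. Among tested differences 267 kept their side of the threshold, 38 lost the call and 4 gained it. The counts of genes past the rule of size for age moved as follows. A pseudocount of 1 CPM gave 5 in meningeal CD4, 4 in meningeal CD8 and 4 in choroid plexus CD8 T cells. Fasl was among the genes that passed in both CD8 comparisons. These counts join both directions, and Tnfsf14 in meningeal CD4 T cells was lower in aged cells by the rule with a pseudocount of 1 CPM, with receptor, mitochondrial and ribosomal UMIs left out of the scaling, without Ccr7-positive cells and without cells holding a non-T marker, and its ratio, like that of Tnfsf11, was also below -1 where 2 UMIs were needed to call a class. Without cells holding a non-T marker it stood in the count of 2 in place of Tnfrsf4. A pseudocount of 50 CPM gave 1 in meningeal CD8, 2 in meningeal neither, 4 in choroid plexus CD4, 1 in choroid plexus CD8 and 3 in choroid plexus neither cells. A class gate of 2 UMIs gave 4 in choroid plexus CD4 T cells. Thinning to 1000 UMIs per cell gave 4 in meningeal CD4, 0 in meningeal CD8, 3 in choroid plexus CD4 and 3 in choroid plexus neither cells, and leaving out Ccr7-positive cells gave 2 in meningeal neither cells.

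For CD8 against CD4 T cells 2 genes, Fasl and Cd40lg, were called without the library block, and 5 to 8 when 1 library was left out. For Ccr7-negative against Ccr7-positive cells DESeq2 called 5 genes, the fit without the library block 1 (Tnfrsf9), the fit without cells holding a non-T marker 5, and the thinned fit 2 of 5 tested, with 4 to 8 called when 1 library was left out. The interaction of class and age was called in 0 genes by DESeq2 and in 0 without the library block, with 2 at an unadjusted p under 0.05 in each, in 2 without the filter on low counts, in 2 with a gate of 2 UMIs, and in 0 to 2 when 1 library was left out. The cause of these shifts was not tested. Low counts limit Tnfrsf8 (8 UMIs over the 12 profiles), Tnfsf14 (225), Fasl (255), Tnfrsf9 (349) and Tnfsf11 (405) most.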
